A study of Homo sapiens with 12 samples.

Results

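Antigen presentation by HLA class I was followed through 9 genes: the heavy chains HLA-B, HLA-C, HLA-E and HLA-F, the light chain B2M, the peptide transporter TAP1 and TAP2, and the immunoproteasome subunits PSMB8 and PSMB9. The genes were taken by name from the count tables, where each of the 9 stood on 1 row among 33514 symbols, and all 9 were among the 17897 genes that passed the filter on low counts. Single-cell RNA sequencing (scRNA-seq, 3′ droplet libraries that count each captured molecule once by its unique molecular identifier, UMI) had been made from SCC1, SCC6 and SCC25, which are 3 established HNSCC lines, cultured cells from squamous tumours of the head and neck. They received either cetuximab, a therapeutic antibody against the EGF receptor, at 100 nM daily for 5 days from 24 hours after seeding, or its vehicle phosphate-buffered saline (PBS), here called untreated. The 6 groups of line and treatment held 2 samples each, numbered replicate 1 and 2, and the labels name no genetic change in any of them. The labels do not say whether replicates came from separate cultures, so the p-values measure only the spread between these libraries, which may be technical.

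The 12 samples held 961 to 2854 cells, 57057402 to 112170073 UMIs in all and a median of 24078.5 to 54864 UMIs per cell, with the lowest median in SCC6 cetuximab replicate 1 and 50156 in SCC6 cetuximab replicate 2. The squamous epithelial markers EPCAM (84.98 to 394 CPM, that is UMIs of the gene per 1000000 UMIs of the sample after edgeR scaling), SFN and TP63 were present in the samples of the 3 lines. KRT14 lay at 1155 to 4675 CPM in SCC1 and SCC25 but at 0.424 to 2.52 CPM in SCC6, and KRT5 at 1.16 to 4.47 CPM in SCC6. Of the markers of professional antigen-presenting cells and other leukocytes, PTPRC and CD3E did not exceed 0.0691 CPM in any sample. ITGAM did not exceed 0.301 CPM, CD79A 2.70 CPM and CD74 5.71 CPM. CD14 lay at 8.23 to 13.5 CPM in SCC1, and reached 5.24 CPM in SCC25 and 0.111 CPM in SCC6. CD68, a lysosomal gene, reached 205 CPM in SCC25. The number of barcodes in common was 3 to 10 between replicates and 1 to 13 between samples of unlike groups.

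Class I molecules carry peptides cut from the cell's own proteins to the surface, where CD8 T cells and natural killer cells read them. The immunoproteasome, in which PSMB8 and PSMB9 replace constitutive catalytic subunits, changes which peptides are cut, TAP1 and TAP2 form the pump that moves the peptides into the endoplasmic reticulum, and a heavy chain folded with B2M binds them there. HLA-B and HLA-C are classical heavy chains that present to T cells and to killer-cell receptors, HLA-E presents leader peptides of other class I molecules to NKG2 receptors, and HLA-F is a non-classical heavy chain with restricted surface display. The genes are known targets of interferon through IRF1 and the coactivator NLRC5, and tumours, head and neck carcinomas among them, often carry low class I expression.

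The positions given here are those of RefSeq on GRCh38.p14. Of the 9 genes, 8 lay in the major histocompatibility complex on chromosome 6: HLA-F at chr6:29723434-29738532, HLA-E at chr6:30489509-30494194, HLA-C at chr6:31268749-31272092, HLA-B at chr6:31353875-31357179, TAP2 at chr6:32821831-32838739, PSMB8 at chr6:32840717-32844679, TAP1 at chr6:32845209-32853704 and PSMB9 at chr6:32854192-32859851. B2M lay at chr15:44711517-44718145. TAP1 and PSMB9 were transcribed away from each other, with 487 bases between their starts. PSMB8 overlapped the antisense gene PSMB8-AS1 (chr6:32844086-32846500), and whether counting used strand is not given in the sources used here, so reads of this stretch cannot be assigned with certainty. HLA genes are also near-identical to each other and differ between people, and how the counting treated shared reads or alleles unlike the reference is not given in the sources used here, so the values of each heavy chain are uncertain to that extent.

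Promoters are shown because the members are known as interferon targets. The RefSeq table (GRCh38.p14) held a promoter for 8 of the 9 genes, HLA-E excepted, and the 250 bases before the start are printed 5′ to 3′ along the gene's own strand for HLA-B (chr6:31357180-31357429, minus strand), HLA-C (chr6:31272093-31272342, minus strand), B2M (chr15:44711267-44711516, plus strand), TAP1 at the more upstream of its starts (chr6:32853705-32853954, minus strand) and PSMB9 (chr6:32853942-32854191, plus strand). Capitals mark matches, on either strand, to the core of the interferon-stimulated response element (GAAA, 2 bases of any kind, GAAA), to a shorter form of it (GAA, 2 bases of any kind, GAAA) or to an NF-kB element (GGG, 2 bases of any kind, TT, 1 base of any kind, CC).
HLA-B: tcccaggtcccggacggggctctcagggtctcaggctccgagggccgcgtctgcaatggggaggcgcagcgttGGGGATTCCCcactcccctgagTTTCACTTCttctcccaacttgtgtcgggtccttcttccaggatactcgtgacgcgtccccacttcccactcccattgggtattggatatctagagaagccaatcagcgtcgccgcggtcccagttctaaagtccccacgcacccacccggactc
HLA-C: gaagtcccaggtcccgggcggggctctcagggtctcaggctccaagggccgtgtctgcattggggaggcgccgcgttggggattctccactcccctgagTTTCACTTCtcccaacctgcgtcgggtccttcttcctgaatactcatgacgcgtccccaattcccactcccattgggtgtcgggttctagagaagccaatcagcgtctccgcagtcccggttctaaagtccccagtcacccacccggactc
B2M: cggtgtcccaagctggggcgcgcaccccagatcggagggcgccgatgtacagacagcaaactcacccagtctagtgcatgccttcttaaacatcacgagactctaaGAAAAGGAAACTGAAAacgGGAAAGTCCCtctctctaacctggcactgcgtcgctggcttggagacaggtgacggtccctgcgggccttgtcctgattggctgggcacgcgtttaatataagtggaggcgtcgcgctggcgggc
TAP1: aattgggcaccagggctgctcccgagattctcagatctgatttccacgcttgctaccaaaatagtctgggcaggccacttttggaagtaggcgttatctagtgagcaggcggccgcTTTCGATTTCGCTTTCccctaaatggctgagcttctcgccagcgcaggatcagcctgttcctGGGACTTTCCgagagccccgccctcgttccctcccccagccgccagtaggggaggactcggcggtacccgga
PSMB9: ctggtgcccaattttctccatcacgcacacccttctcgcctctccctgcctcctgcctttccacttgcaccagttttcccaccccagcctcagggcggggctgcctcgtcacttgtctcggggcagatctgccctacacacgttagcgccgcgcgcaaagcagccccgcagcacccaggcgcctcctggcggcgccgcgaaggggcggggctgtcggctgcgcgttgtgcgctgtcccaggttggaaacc
The HLA-B and HLA-C windows were 89.0% identical over 254 aligned columns, and both held the shorter interferon element, HLA-B from 155 to 147 bases before the start and HLA-C from 151 to 143. The interferon core was found in HLA-F, B2M, TAP1 and TAP2, and in B2M and TAP1 as a pair of overlapping matches, against 3.02% of all 35116 promoter windows of this length. The shorter form was found in HLA-B, HLA-C and TAP2, where it overlaps the core, against 6.56% of all windows, and the NF-kB element in HLA-B, B2M and TAP1 against 5.07%. The windows of PSMB8 and PSMB9 held none of these 3 patterns. The interferon core and NF-kB matches of TAP1 lie between the starts of TAP1 and PSMB9, but outside the 250 bases read for PSMB9. The X2 box core TGACG was found in 6 of the 8 genes (21.2% of all windows) and CCAAT in 6 of the 8 (32.0%). A match is a string of letters and not a measured binding site.

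The 3 untreated lines differed in class I expression chiefly through SCC6. Every one of the 9 genes was lower in untreated SCC6 than in untreated SCC1, and 8 of the 9 were higher in untreated SCC25 than in untreated SCC6. Levels are given in CPM for PBS replicate 1 and then replicate 2.

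HLA-B lay at 1018 and 1133 CPM in SCC1 and at 584 and 1307 CPM in SCC25, but at 6.28 and 6.37 CPM in SCC6. The groups did not overlap between SCC6 and either other line, and the log2 difference from SCC1 was −7.41 ± 0.43 (SE; edgeR adjusted p = 1.59e-06). HLA-C, its close paralogue, lay at 889 and 848 CPM in SCC1, 562 and 1185 CPM in SCC25 and 147 and 191 CPM in SCC6, a log2 difference between SCC6 and SCC1 of −2.36 ± 0.37 (edgeR adjusted p = 0.000661). Both heavy chains stood lowest in SCC6, and the difference was the largest of the 9 genes in HLA-B. HLA-E, the ligand of NKG2A, lay at 179 and 178 CPM in SCC1, 147 and 238 CPM in SCC25 and 63.7 and 52.3 CPM in SCC6. HLA-F lay at 62.1 and 58.3 CPM in SCC1, 33.9 and 61.8 CPM in SCC25 and 5.74 and 7.60 CPM in SCC6. In both genes the SCC6 samples were the lowest of the untreated samples, with log2 differences from SCC1 of −1.62 ± 0.25 for HLA-E and −3.17 ± 0.38 for HLA-F.

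B2M, the light chain that every class I heavy chain needs, lay at 3554 and 3099 CPM in SCC1, 2238 and 3100 CPM in SCC25 and 997 and 854 CPM in SCC6 (log2 difference between SCC6 and SCC1 −1.85 ± 0.24, edgeR adjusted p = 0.000188). The light chain was thus also lowest in SCC6, by a smaller log2 difference than either classical heavy chain. TAP1 lay at 82.2 and 83.4 CPM in SCC1, 36.0 and 63.3 CPM in SCC25 and 14.7 and 16.3 CPM in SCC6. TAP2, its partner in the transporter, followed another order, with 77.4 and 89.6 CPM in SCC1, 21.6 and 31.2 CPM in SCC25 and 20.03 and 35.1 CPM in SCC6. TAP2 was the member lower in SCC25 than in SCC1 past the threshold (log2 difference −1.66 ± 0.39, edgeR adjusted p = 0.00743), and SCC25 and SCC6 overlapped in it. Leaving out SCC25 PBS replicate 1 ended this call (−1.42, edgeR adjusted p = 0.0555), and leaving out SCC25 PBS replicate 2 raised the members called to 4, all lower in SCC25, where 11.7% of all genes passed as lower.

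PSMB9, the immunoproteasome subunit that takes the place of PSMB6, lay at 299 and 273 CPM in SCC1, 171 and 256 CPM in SCC25 and 22.6 and 15.4 CPM in SCC6. Its log2 difference between SCC6 and SCC1 was −3.91 ± 0.34 (edgeR adjusted p = 1.53e-05), the next in size after HLA-B. PSMB8, which takes the place of PSMB5, lay at 190 and 197 CPM in SCC1, 113 and 189 CPM in SCC25 and 76.3 and 75.5 CPM in SCC6, and its log2 difference of −1.35 ± 0.23 was the smallest of the 9. The divergent neighbours TAP1 and PSMB9 both stood in the order SCC1, SCC25, SCC6 by group mean, but SCC1 and SCC25 did not differ past the threshold in either (edgeR adjusted p = 0.111 and 0.285).

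By count, 9 of 9 genes passed the test as lower in SCC6 than in SCC1, where 18.6% of all genes tested did, and 8 of 9 passed as higher in SCC25 than in SCC6, where 22.2% did. SCC25 was lower than SCC1 in 1 of 9, where 17.3% of all genes were. The median log2 difference over the 9 genes was −2.36 between SCC6 and SCC1, and the median over all genes was 0.00326. Leaving out SCC6 PBS replicate 1 ended the call of TAP2 between SCC6 and SCC1 (−1.25, edgeR adjusted p = 0.0755), and leaving out SCC25 PBS replicate 2 that of PSMB8 between SCC25 and SCC6 (0.58, edgeR adjusted p = 0.0556).

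**Figure D1:**
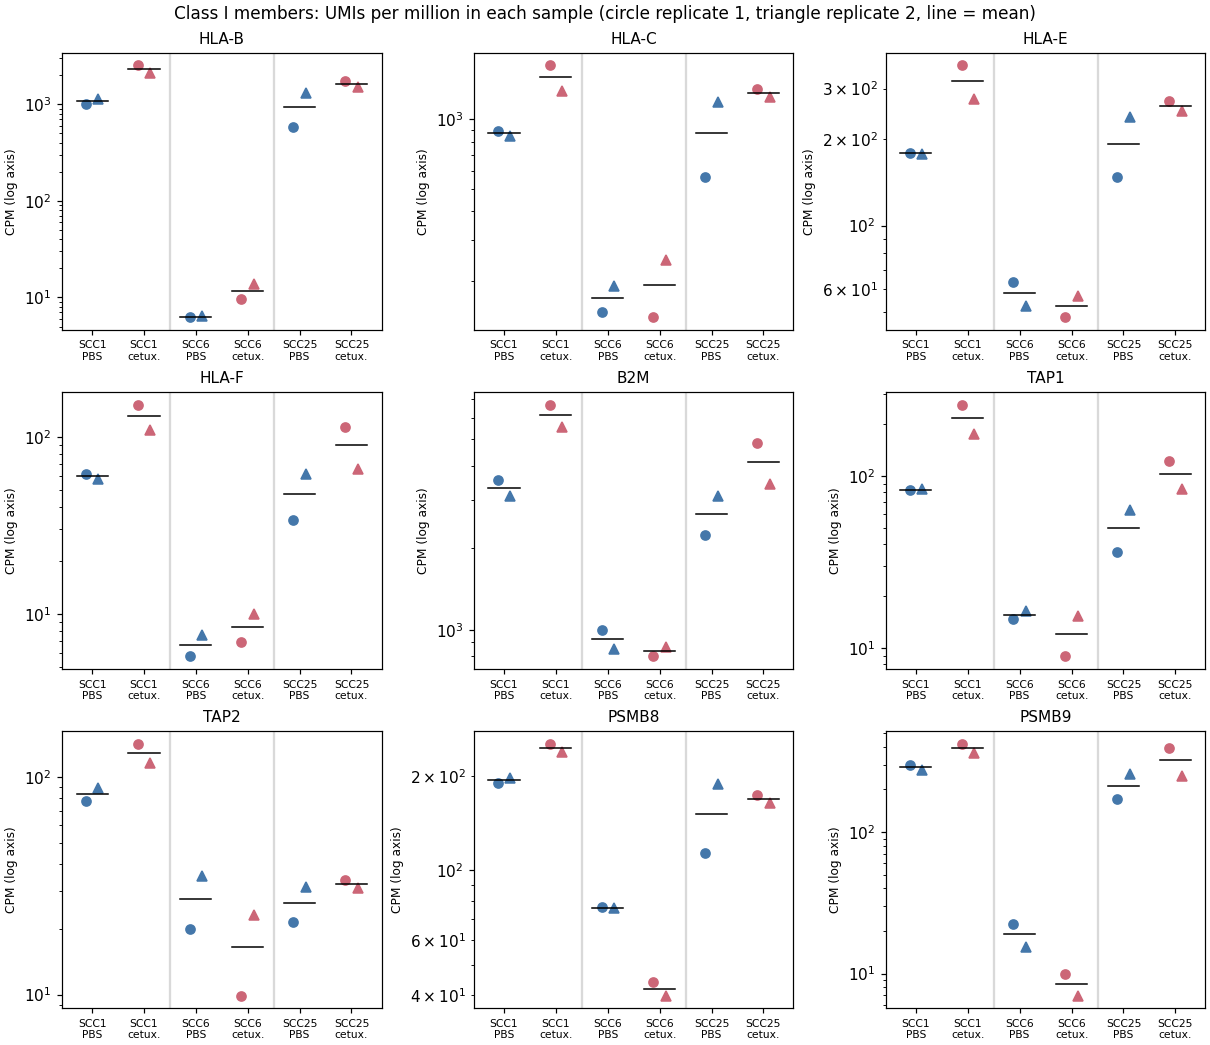
Level of each of the 9 genes in the 12 samples, in CPM on a log axis of its own per gene, by line and treatment (blue PBS, red cetuximab, circle replicate 1, triangle replicate 2, line the mean of 2). HLA-B lies between 6.28 and 13.7 CPM in the SCC6 samples and above 580 CPM in the others, and PSMB8 and PSMB9 lie lower in both SCC6 cetuximab samples than in both SCC6 PBS samples.

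In SCC1 the 9 genes were all higher in both cetuximab samples than in both PBS samples, a separation seen in 22.3% of all genes in this direction, but none passed edgeR's test adjusted over 17897 genes, in which 0.0168% of all genes passed. At an unadjusted p under 0.05 the count was 6 of 9, against 8.77% of all genes. The replicate numbers were taken as pairing the samples, which no label states. With the replicate as a block 2 members passed as higher, B2M and TAP1, where 2.46% of all genes did.

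TAP1 showed the largest estimate, from 82.2 and 83.4 CPM in PBS to 259 and 174 CPM in cetuximab, a log2 fold change of 1.39 ± 0.35 (edgeR adjusted p = 0.239, and 0.0470 with the block). B2M lay at 3554 and 3099 CPM in PBS and 6695 and 5544 CPM in cetuximab, 0.88 ± 0.23 on the log2 scale (edgeR adjusted p = 0.256, and 0.0477 with the block). Both pairs of equal replicate number pointed the same way, by 0.91 and 0.84 for B2M and by 1.66 and 1.06 for TAP1. HLA-B lay at 2531 and 2094 CPM with cetuximab, a log2 fold change of 1.10 ± 0.33 (edgeR adjusted p = 0.326), HLA-C at 1706 and 1328 CPM (0.81 ± 0.35), HLA-E at 361 and 276 CPM (0.83 ± 0.25) and HLA-F at 152 and 110 CPM (1.12 ± 0.36). TAP2 lay at 142 and 117 CPM with cetuximab (0.63 ± 0.39). The immunoproteasome subunits had the smallest estimates, PSMB8 at 253 and 237 CPM with 0.34 ± 0.23 and PSMB9 at 419 and 363 CPM with 0.45 ± 0.30. Cetuximab replicate 1 lay above replicate 2 in each of the 9 genes.

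In SCC25 the fitted values were above 0 for 9 of 9 genes (0.16 to 1.06, log2), and none passed the test (edgeR adjusted p from 0.643 to 1.00; 4 of 9 at an unadjusted p under 0.05, against 5.82% of all genes), where 0% of all genes passed. The PBS replicates stood far apart. HLA-B lay at 584 and 1307 CPM in PBS and at 1748 and 1532 CPM in cetuximab, so that the log2 change was 1.58 in the pair of replicate 1 and 0.23 in that of replicate 2. TAP1 lay at 36.0 and 63.3 CPM in PBS and 123 and 83.8 CPM in cetuximab (1.06 ± 0.34, with 1.77 and 0.41 in the pairs). B2M lay at 2238 and 3100 CPM in PBS and 4836 and 3426 CPM in cetuximab (0.63 ± 0.23, with 1.11 and 0.14 in the pairs). Both cetuximab samples lay above both PBS samples in 6 of 9 genes, where 14.4% of all genes did. In TAP2, PSMB8 and PSMB9 the groups overlapped, and the pair of replicate 2 stood at −0.01, −0.21 and −0.03.

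SCC6 gave another pattern, in which the members did not share a direction. With 2 samples a group, 0 of 9 passed edgeR's test without the block (3 of 9 at an unadjusted p under 0.05, against 19.9% of all genes), where 3.81% of all genes passed. With the replicate as a block 3 members passed, all lower, where 10.1% of all genes passed as lower: PSMB9, PSMB8 and TAP2.

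PSMB9 lay at 22.6 and 15.4 CPM in SCC6 PBS and at 9.89 and 6.99 CPM with cetuximab. The groups did not overlap, and the log2 fold change was −1.17 ± 0.31 (edgeR adjusted p = 0.0642, and 0.0154 with the block), with −1.19 and −1.14 in the 2 pairs. PSMB8 lay at 76.3 and 75.5 CPM in PBS and 43.9 and 39.8 CPM with cetuximab, −0.86 ± 0.23 (edgeR adjusted p = 0.0684, and 0.0163 with the block). These were the 2 of 9 genes with both SCC6 cetuximab samples below both PBS samples, where 21.4% of all genes were. TAP2 lay at 20.03 and 35.1 CPM in PBS and 9.90 and 23.2 CPM with cetuximab, −0.73 ± 0.39 (edgeR adjusted p = 0.330, and 0.0276 with the block). Its groups overlapped, and the pairs stood at −1.02 and −0.59. TAP1 lay at 14.7 and 16.3 CPM in PBS and 8.93 and 15.3 CPM with cetuximab (−0.36 ± 0.34).

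The heavy chains of SCC6 did not follow the immunoproteasome. HLA-B lay at 6.28 and 6.37 CPM in PBS and at 9.72 and 13.7 CPM with cetuximab, 0.89 ± 0.33 on the log2 scale (edgeR adjusted p = 0.166), and was the 1 member with both cetuximab samples above both PBS samples, where 25.5% of all genes were. HLA-F lay at 5.74 and 7.60 CPM in PBS and 6.94 and 9.97 CPM with cetuximab (0.34 ± 0.36), and HLA-C at 147 and 191 CPM and then 140 and 246 CPM (0.19 ± 0.35). HLA-E (63.7 and 52.3 CPM, then 48.0 and 56.7 CPM) and B2M (997 and 854 CPM, then 801 and 867 CPM) had estimates of −0.15 ± 0.25 and −0.15 ± 0.23, whose sign turned without edgeR's scaling factors. Those factors were 0.835 and 0.894 in the SCC6 PBS samples and 1.02 and 1.00 in the SCC6 cetuximab samples.

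**Figure D2:**
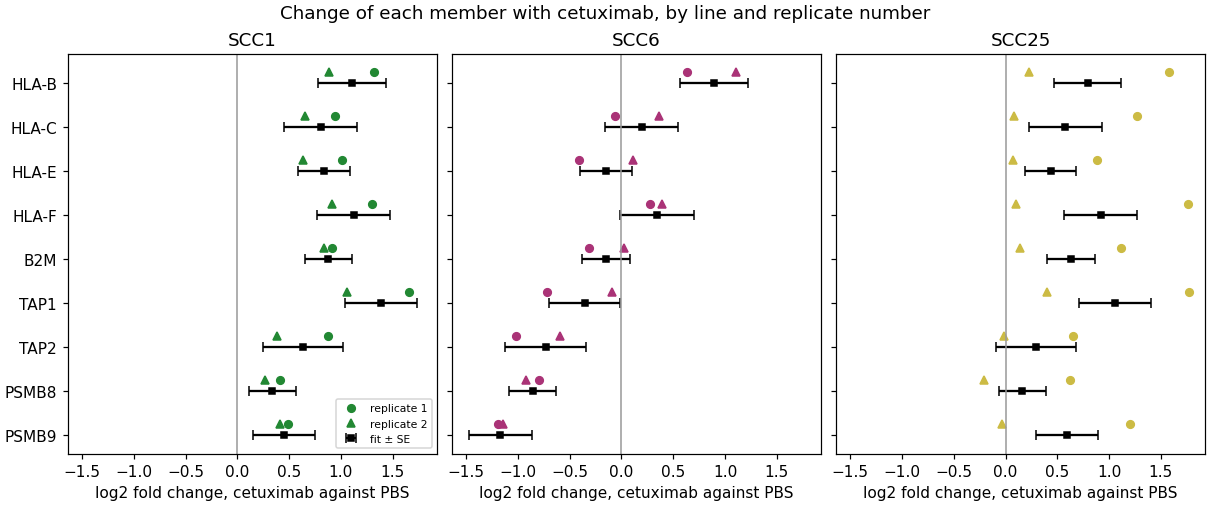
Log2 fold change of each gene between cetuximab and PBS in SCC1, SCC6 and SCC25, as the fitted value with its standard error (black squares and bars) and as the change in each pair of equal replicate number (coloured circle replicate 1, triangle replicate 2). All 9 estimates lie above 0 in SCC1 and SCC25, where the 2 pairs of SCC25 stand far apart, and PSMB9, PSMB8 and TAP2 lie lowest in SCC6.

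In the fit over the 3 lines, HLA-B rose with cetuximab, with a log2 fold change of 0.93 ± 0.18 (edgeR adjusted p = 0.0173), higher in 6 of 6 pairs of line and replicate. It was the 1 member of 9 that passed, where 3.67% of all genes passed and 2.53% passed as higher. HLA-F stood at 0.80 ± 0.21 (edgeR adjusted p = 0.0572, and 0.0463 with the block, in which 6.03% of all genes passed as higher), also higher in 6 of 6 pairs, as 10.5% of all genes were. HLA-C (0.53 ± 0.20), TAP1 (0.71 ± 0.29), B2M (0.45 ± 0.18) and HLA-E (0.37 ± 0.18) had edgeR adjusted p from 0.155 to 0.247, and TAP2, PSMB8 and PSMB9 had estimates of 0.07, −0.12 and −0.02. The call of HLA-B was lost without SCC1 cetuximab replicate 1 (edgeR adjusted p = 0.0505), SCC6 cetuximab replicate 2 (edgeR adjusted p = 0.0538) or SCC1 PBS replicate 2 (edgeR adjusted p = 0.0517), while the estimate stayed between 0.82 and 1.12 whichever sample was left out.

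Whether the cetuximab change differed between lines was tested with the interaction of line and treatment, in which 0 of 9 members and 0% of all genes passed. PSMB9 had the lowest p of the members (0.00340 unadjusted, edgeR adjusted p = 0.380, and 0.0719 with the block), and it passed by DESeq2 (adjusted p = 0.0162), as no other member and 1.78% of all genes did. TAP1, TAP2, PSMB8 and PSMB9 were higher with cetuximab in both SCC1 pairs and lower in both SCC6 pairs, a pattern of 7.39% of all genes.

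Immunoproteasome subunits take the place of constitutive ones, so the UMIs of each were set over those of its counterpart within a sample, a ratio that scaling between samples does not touch. The ratio is read only as a change between samples. In SCC6 the ratio of PSMB9 to PSMB6 was 0.0595 and 0.0260 in PBS and 0.0292 and 0.0142 with cetuximab, log2 changes of −1.03 and −0.88 in the pairs. That of PSMB8 to PSMB5 was 0.131 and 0.0985 in PBS and 0.0965 and 0.0637 with cetuximab, −0.44 and −0.63. Both ratios were lower with cetuximab within each SCC6 pair. The groups overlapped for PSMB9 to PSMB6, with 0.0292 in cetuximab replicate 1 above 0.0260 in PBS replicate 2. In SCC1 the ratio of PSMB9 to PSMB6 was 0.759 and 0.529 in PBS and 0.989 and 0.809 with cetuximab, and that of PSMB8 to PSMB5 was 0.694 and 0.591 and then 0.873 and 0.810, all higher with cetuximab within each pair. In the SCC25 pairs PSMB9 to PSMB6 changed by 0.88 and 0.29 and PSMB8 to PSMB5 by 0.37 and 0.0205, so that the pair of replicate 2 showed little change in the latter. The ratio of PSMB10 to PSMB7 changed by −0.11 and 0.12 in the SCC6 pairs, by 0.82 and 0.47 in the SCC1 pairs and by 0.77 and 0.12 in the SCC25 pairs.

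The share of cells with a UMI of each gene was read after every cell was thinned at random to 15000 UMIs, which kept 23063 cells and left out 851, 262 of them from SCC6 cetuximab replicate 1. In SCC1 and SCC25 nearly every cell held an HLA-B UMI, with 99.3% to 100% of cells in SCC1 and 98.1% to 99.8% in SCC25. In SCC6 the share was 6.11% (162 of 2652 cells, 95% exact binomial interval 5.23 to 7.09) and 7.35% (179 of 2436, 6.34 to 8.46) in PBS, and 11.9985% (311 of 2592, 10.8 to 13.3) and 13.5% (222 of 1639, 11.9 to 15.3) with cetuximab. Unthinned, the SCC6 shares were 12.9%, 14.9%, 17.4% and 32.3% in that order. The intervals cover counting error only. No cell type without class I was in the tables, and the marker genes PTPRC, CD3E, ALB and HBB gave a UMI in at most 0.137% of thinned cells of any sample. B2M was found in 99.8% to 100% of the thinned cells in the 12 samples, so SCC6 cells held the light chain.

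The mean share differed between cetuximab and PBS, over the 3 lines, for 3 of 9 genes at p under 0.05 in the exact two-sided permutation test within lines, whose smallest possible p is 0.00926. All 3 were higher with cetuximab, and in a second random draw, made for all 17897 genes, 13.2% of them passed as higher, with 4 of the 9 members. HLA-F rose by 16.6 points (exact p = 0.0185), from 52.0% and 51.3% to 80.9% and 72.9% in SCC1, from 6.45% and 10.1% to 9.72% and 14.3% in SCC6 and from 33.7% and 54.8% to 71.9% and 58.1% in SCC25. TAP1 rose by 16.0 points (exact p = 0.0463), by 25.1 points in SCC1 and 25.01 points in SCC25, with a mean difference of −2.04 points in SCC6. HLA-B rose by 2.46 points (exact p = 0.0278), the mean of 0.518 points in SCC1, 6.04 in SCC6 and 0.812 in SCC25. These p-values were not adjusted over the 9 tests. Shares near 100% leave little room to rise, so the test could hardly show an increase for B2M. The same holds for HLA-B and HLA-C in SCC1 and SCC25, where each share was 98.1% or more. With the replicate as a block, by an exact test that flips the signs of the 6 pair differences, HLA-F passed (exact p = 0.0312), HLA-B and TAP1 did not (exact p = 0.0625 and 0.125), and HLA-C, higher in 6 of 6 pairs by a mean of 1.25 points, did (exact p = 0.0312). This is the smallest p that 64 flips allow, and 14.0% of all genes passed it as higher in the second draw. For HLA-C the p without the block was 0.352 (exact permutation test), the difference turned to −0.509 points without thinning, and leaving out 1 sample gave −1.45 to 3.95 points, with SCC6 PBS replicate 1 and SCC6 cetuximab replicate 2 as the samples whose absence turned it. Without SCC25 PBS replicate 1 or without SCC25 cetuximab replicate 1 the count of genes that passed was 0, and without SCC25 cetuximab replicate 2 it was 1, HLA-F. PSMB8 and PSMB9 moved apart between lines, with mean differences of −14.5 and −7.80 points in SCC6 against 4.46 and 4.04 points in SCC1. In SCC6 the share with PSMB8 was 57.0% and 59.6% in PBS and 44.3% and 43.3% with cetuximab. Differences within a single line were not tested.

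**Figure D3:**
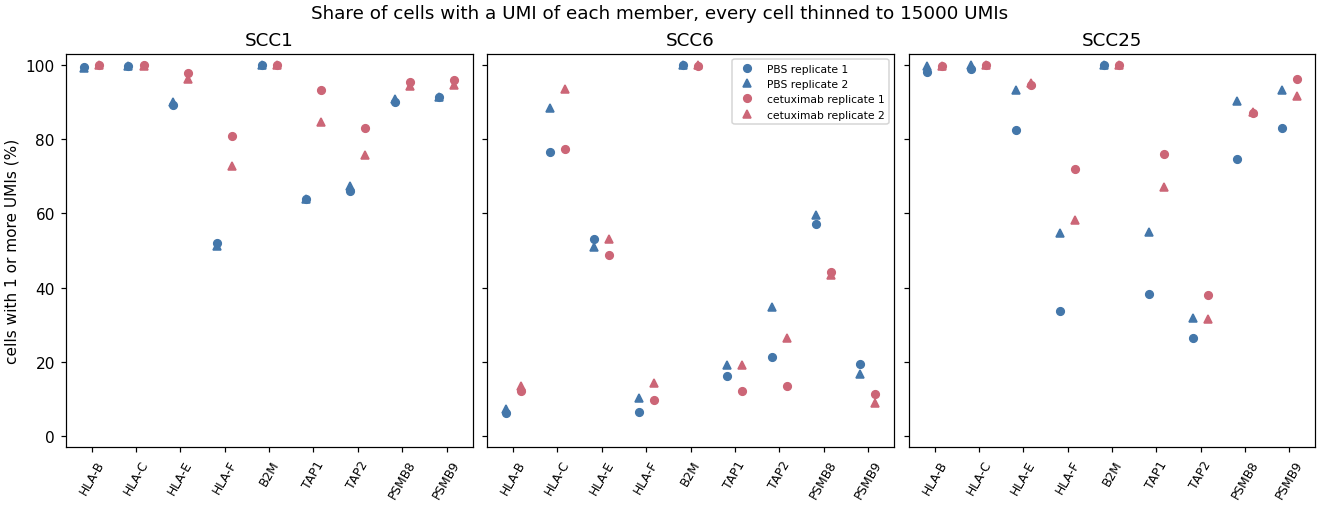
Share of cells (%) with 1 or more UMIs of each gene after thinning every cell to 15000 UMIs, by line (blue PBS, red cetuximab, circle replicate 1, triangle replicate 2). HLA-B is found in 6.11% to 13.5% of SCC6 cells and in over 98% of cells in the other lines, while B2M is near 100% in all.

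Summed over HLA-B, HLA-C, HLA-E and HLA-F, the median thinned cell of SCC1 held 30 and 31 heavy-chain UMIs in PBS and 71 and 56 with cetuximab. In SCC25 the medians were 15 and 36 in PBS and 42 and 41 with cetuximab, and in SCC6 they were 2 and 3 in PBS and 2 and 4 with cetuximab. Every thinned cell of SCC1 and SCC25 held at least 1 heavy-chain UMI, whereas 10.8% and 5.79% of SCC6 cells in PBS and 11.5% and 2.75% with cetuximab held none. The median SCC6 cell held 11 B2M UMIs in each of the 4 samples, and the median cell of the other lines 29 to 105.

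In SCC1 and SCC25, cells of a sample with more HLA-B also held more HLA-C and B2M. The Pearson correlation of thinned UMIs between HLA-B and HLA-C was 0.75 to 0.88 over the 4 SCC1 samples (938 to 1640 cells each) and 0.75 to 0.85 over the 4 SCC25 samples (1920 to 2503 cells each), and between HLA-B and B2M it was 0.64 to 0.74 and 0.67 to 0.72. The pair of HLA-B and TAP1 gave 0.31 to 0.59 in SCC1 and 0.20 to 0.36 in SCC25. In SCC6, where HLA-B UMIs were sparse (1639 to 2652 cells a sample), these values were lower, at 0.20 to 0.36 for HLA-C, 0.26 to 0.37 for B2M and 0.0527 to 0.20 for TAP1. Other pairs lay near 0, such as HLA-B and TAP2 in SCC6 (−0.0095 to 0.0380), or reached low values in single samples, such as TAP1 and TAP2 in SCC25 (0.0121 to 0.19). Cells of a sample share their library, and HLA-B and HLA-C may share reads, so these values are descriptions.

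Some SCC6 cells held several HLA-B UMIs. Cells with 3 or more thinned HLA-B UMIs, a limit chosen after the values were seen, numbered 7 and 18 in PBS and 20 and 25 with cetuximab, in all 70 of 9319 SCC6 cells. Their mean HLA-C was 10.1, 6, 6.35 and 8.60 UMIs in that order, against 1.83, 2.65, 2.04 and 3.56 UMIs in the other SCC6 cells. Their mean B2M was 61.4, 24.5, 31.3 and 30.4 UMIs, against 12.7, 11.6, 11.9 and 12.7. These cells thus carried 2.10 to 4.84 times the B2M and 2.27 to 5.53 times the HLA-C of the rest. PSMB9 (2.97 to 8.33 times), TAP1 (1.99 to 4.51 times) and PSMB8 (1.64 to 3.87 times) were higher in them in each of the 4 samples, and so was ISG15, an interferon-induced gene (1.87 to 3.26 times). IFI27, another interferon-induced gene, had no UMI in these cells in either PBS sample and a mean of 0.250 and 0.840 UMIs in them with cetuximab, against 0.0404 and 0.0601 UMIs in the others. HLA-F, at 0.94 to 6.37 times, and TAP2, at 0.88 to 2.35 times, were not higher in every sample. In the 70 cells PSMB9 had 48 UMIs in all, TAP1 38 and PSMB8 112, so their ratios rest on few UMIs. The share of all genes that were higher in such cells is not given here. Together the 70 cells held 3 thinned UMIs of KRT14 and 5 of KRT5, genes with a mean of 26.8 and 7.74 UMIs per cell in SCC1 and 46.6 and 23.8 UMIs per cell in SCC25.

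**Figure D4:**
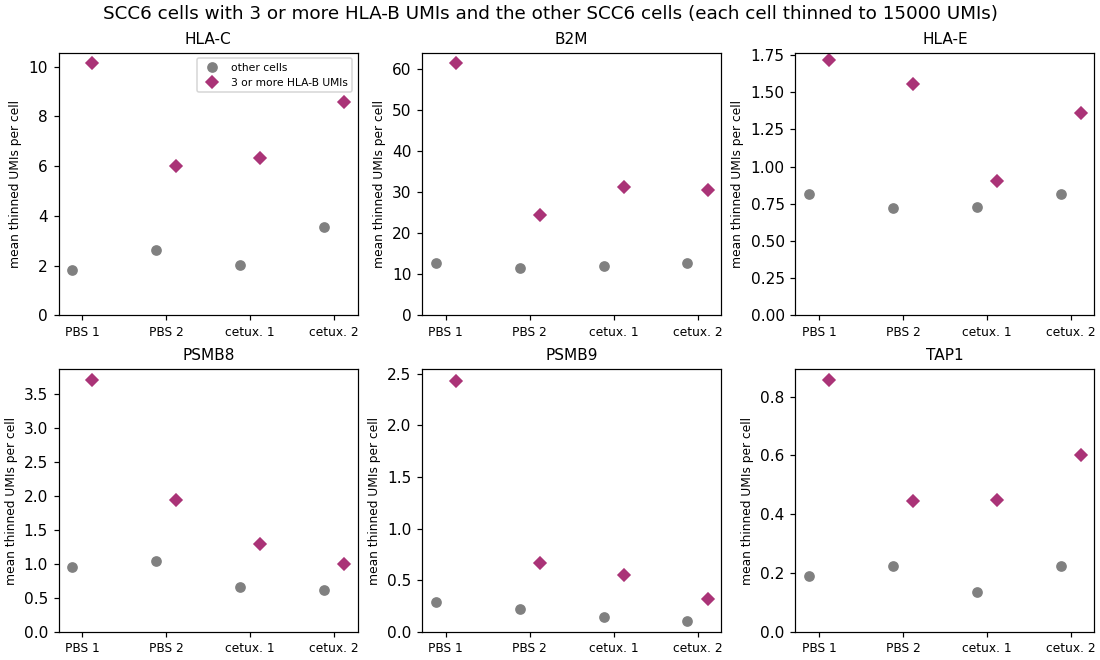
Mean thinned UMIs per cell of 6 members in SCC6 cells with 3 or more HLA-B UMIs (purple diamonds; 7, 18, 20 and 25 cells) and in the other SCC6 cells (grey circles), for each of the 4 SCC6 samples. B2M is 24.5 to 61.4 UMIs in the former and 11.6 to 12.7 in the latter.

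The 10% of cells with most UMIs of 20 interferon-response genes, none of them members, were set against the other cells of their own sample. The ratio of mean thinned UMIs was above 1 for each of the 9 genes in each of the 12 samples. TAP1 stood at 1.61 to 2.20 in SCC1, 1.53 to 1.89 in SCC6 and 1.68 to 1.81 in SCC25, and B2M at 1.58 to 1.67, 1.37 to 1.55 and 1.67 to 1.99. HLA-B stood at 1.44 to 1.85 in SCC1 and 1.71 to 2.24 in SCC25. The largest ratios were those of HLA-B and PSMB9 in SCC6, at 1.94 to 3.47 and 1.64 to 2.78, where the mean level of HLA-B in the high cells was still only 0.200 to 0.549 thinned UMIs. TAP2 stood at 1.03 to 1.43 over all samples. Computed on CPM of unthinned cells so that it could be set beside other genes, the ratio was above 1 in every sample for 8 of the 9 members (TAP2 excepted) and for 6.16% of the 7563 genes with a mean of at least 10 CPM, the 20 genes used to rank the cells left out. The median ratio over all these genes was 0.996, against 1.60 over the members.

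**Figure D5:**
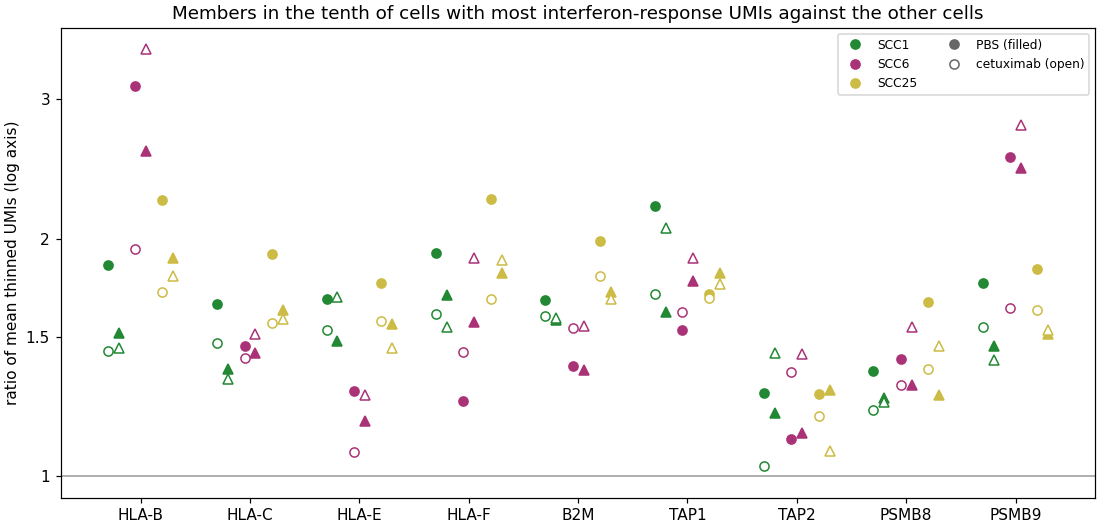
Ratio, on a log axis, of mean thinned UMIs in the 10% of cells with most interferon-response UMIs to that in the other cells of the sample, for each gene and sample (colour the line, filled PBS, open cetuximab, circle replicate 1, triangle replicate 2). All points lie above 1, with HLA-B and PSMB9 of SCC6 reaching 3.47 and 2.78 and TAP2 down to 1.03.

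Cells holding cycling markers (MKI67 or TOP2A) were set against the other cells of a sample in the same way. B2M was lower in them in the 12 samples, at 0.79 to 0.83 times in SCC1, 0.84 to 0.93 in SCC6 and 0.70 to 0.81 in SCC25. HLA-C stood at 0.71 to 0.91 and HLA-E at 0.69 to 0.92 over all samples. The share of all genes lower in cells with cycling markers is not given here. Ratios above 1 in all 4 samples of a line were those of PSMB9 and PSMB8 in SCC1, at 1.19 to 1.26 and 1.01 to 1.10 times, and of TAP2 in SCC6 and SCC25, at 1.17 to 1.30 and 1.004 to 1.38 times. The summed level of the 2 cycling markers was 289 to 337 CPM in SCC1 PBS and 89.1 to 177 CPM in SCC1 cetuximab, 273 to 333 and 233 to 247 CPM in SCC6, and 215 to 259 and 137 to 180 CPM in SCC25. The part of this shift in the cetuximab change of the members was not tested.

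Other genes of the pathway were read from fixed lists. Among the 7 genes of peptide loading and trimming (TAPBP, TAPBPL, CALR, CANX, PDIA3, ERAP1 and ERAP2) none passed edgeR's test with cetuximab in any line, with or without the block, and the median estimate was 0.37 in SCC1, 0.32 in SCC25 and −0.13 in SCC6 (over all genes 0.00120, −0.00676 and 0). TAPBP, tapasin, which holds empty heavy chains beside the transporter, lay at 140 and 134 CPM in SCC1 PBS and 250 and 179 CPM with cetuximab (0.65 ± 0.23, edgeR adjusted p = 0.442), and in SCC6 at 88.2 and 71.5 CPM and then 87.7 and 72.9 CPM. In untreated SCC6 it was lower than in SCC1, by −0.78 ± 0.23 on the log2 scale (edgeR adjusted p = 0.0231). TAPBPL and CALR, the chaperone calreticulin, had SCC6 estimates of −0.68 ± 0.50 and −0.20 ± 0.30.

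Of the 5 genes of the list immunoproteasome and PA28, all 5 estimates were above 0 in SCC1 and in SCC25 and none in SCC6, and 0 passed without the block. With the block PSME1, a subunit of the PA28 activator, passed as lower in SCC6, where 10.1% of all genes did. It lay at 382 and 348 CPM in SCC6 PBS and 205 and 238 CPM with cetuximab (−0.72 ± 0.28 without the block, and edgeR adjusted p = 0.0430 with it). PSME2, its partner, lay at 254 and 352 CPM and then 161 and 220 CPM (−0.67 ± 0.28, edgeR adjusted p = 0.214), and PSMB10 at 14.9 and 9.23 CPM and then 8.59 and 7.22 CPM (−0.61 ± 0.44). The constitutive subunits PSMB5, PSMB6 and PSMB7 had SCC6 estimates of −0.32 ± 0.24, −0.22 ± 0.28 and −0.56 ± 0.27, with PSMB7 passing as lower with the block (edgeR adjusted p = 0.0433). Among the 11 other 20S core subunits none passed with cetuximab in any line, and their median estimate in SCC6 was −0.30. None of these 11 and none of the 3 constitutive subunits had an SCC6 estimate above 0. The SCC6 direction was thus not particular to the immunoproteasome list. The share of all genes with such signs is not given here. PSMA6, PSMB2 and PSMA7 had SCC6 estimates of −0.24 ± 0.24, −0.33 ± 0.25 and −0.26 ± 0.16.

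Among 11 regulators of class I transcription none passed within a line without the block. With the block STAT2 passed as higher in SCC1, where 2.46% of all genes did. In SCC6 STAT2 and IRF9 passed with it as higher, where 9.94% of all genes did. IRF1 and NLRC5 passed with it as lower in SCC6, where 10.1% of all genes did. IRF1, a transcription factor of the interferon response, lay at 33.3 and 18.3 CPM in SCC6 PBS and 13.02 and 9.80 CPM with cetuximab (−1.18 ± 0.29, edgeR adjusted p = 0.0557, and 0.00433 with the block). NLRC5, the class I transactivator, lay at 2.26 and 1.53 CPM and then 0.786 and 0.973 CPM (−1.10 ± 0.36, edgeR adjusted p = 0.118, and 0.0217 with the block). NLRC5 did not exceed 2.26 CPM in the SCC6 samples. Of the 11 regulators, 5 had SCC6 estimates above 0. A link of IRF1 or NLRC5 to the members was not tested. In SCC1 IRF1 stood at 72.4 and 69.5 CPM and then 89.2 and 69.8 CPM, and NLRC5 at 3.68 and 3.04 CPM and then 8.35 and 5.22 CPM (1.01 ± 0.34, edgeR adjusted p = 0.399). STAT2 rose over the 3 lines (0.92 ± 0.18, edgeR adjusted p = 0.0205) and with the block also passed in SCC1 and SCC6 (edgeR adjusted p = 0.0136 and 0.0189).

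Among the 9 interferon receptors and kinases none passed with cetuximab without the block. With the block IFNGR2, a chain of the interferon-gamma receptor, passed as lower in SCC6, where 10.1% of all genes did (−0.50 ± 0.26 without the block, edgeR adjusted p = 0.0479 with it). IFNGR1 and IFNAR2 stood at −0.59 ± 0.41 and 0.39 ± 0.24 in SCC6. Of the 7 interferon ligands 5 were tested, and IFNL3, a type III interferon named after its values were seen, passed as higher in the fit over the 3 lines (edgeR adjusted p = 0.0497). It lay at 0.0374 and 0.0680 CPM in SCC25 PBS and 0.579 and 0.741 CPM in SCC25 cetuximab, at 0.184 CPM in SCC1 cetuximab replicate 1 and at 0 in the other SCC1 and all SCC6 samples, so the call rests on SCC25 and 1 SCC1 sample. Among the 9 class I-like molecules and NK ligands FCGRT, the B2M-bound neonatal Fc receptor, passed as higher in SCC6 (5.51 and 5.96 CPM in PBS, 15.96 and 10.996 CPM with cetuximab; 1.23 ± 0.26, edgeR adjusted p = 0.0310), as 2.51% of all genes did. None of the 9 passed in SCC1 or SCC25. ULBP2 and MICA, ligands of the killer-cell receptor NKG2D, had SCC6 estimates of −0.17 ± 0.32 and −0.03 ± 0.24. Of the 20 interferon-response genes, 8 passed as higher over the 3 lines, where 2.53% of all genes did. Among them were CXCL10 (3.39 ± 0.66), IFI6 (2.07 ± 0.38) and IFI44L (1.57 ± 0.30). With the block 13 of 20 passed as higher over the 3 lines, where 6.03% of all genes did, and 12 in SCC1, where 2.46% did. In SCC25 5 passed with it as higher, where 138 of 17897 genes did. In SCC6 4 passed with it as higher and 1 as lower, where 9.94% and 10.1% of all genes did. Of the interferon ligands, 2 passed with it as higher over the 3 lines and 1 in SCC25. The median estimate of the 20 genes was 1.47 in SCC1 and in SCC25 but 0.30 in SCC6, where 14 of 20 lay above 0. In untreated SCC6 20 of 20 passed as lower than in untreated SCC1, where 18.6% of all genes did.

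The genes most like the members were named by the Pearson correlation, over the 12 samples, with the mean over the 9 genes of log2 CPM centred within each line, among 2715 genes with a mean of at least 50 CPM. They were SP100 (r = 0.96), CTSC (0.96), SYNGR2 (0.95), OAS1 (0.95) and CST3 (0.94). The centred mean of the members was −0.41 and −0.42 in SCC1 PBS, 0.58 and 0.25 in SCC1 cetuximab, 0.08 and 0.16 in SCC6 PBS, −0.31 and 0.07 in SCC6 cetuximab, −0.70 and 0.06 in SCC25 PBS and 0.49 and 0.15 in SCC25 cetuximab. The samples of a line and treatment share their culture conditions, and the correlation is a description.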

How the data were processed

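Cells of HNSCC lines treated with cetuximab or PBS were sequenced with 10x 3′ v2 chemistry. The authors deposited, per line, a table of UMI counts (whole numbers per gene and cell, not normalized) with the sample of each cell; the submitters' processing notes name Cell Ranger and GRCh38, and versions are not given in the sources used here. Duplicate symbols were summed, and counts were summed over the cells of each sample. Genes were filtered with filterByExpr, scaled with TMM and tested in edgeR 4.0.16 (quasi-likelihood F-test) in 1 fit of 6 group means with 6 residual degrees of freedom, p-values being adjusted by Benjamini-Hochberg over the 17897 genes tested, with a threshold of 0.05; SE is the absolute log2 fold change over the square root of F. The pooled test over the 3 lines used line and treatment as additive terms. DESeq2 1.42.0 was an alternative. Deviations of same-numbered samples from their group means correlated in the 3 lines (Pearson r = 0.38, 0.35 and 0.60), so replicate numbers were taken as pairing the samples. The fit with that block is given where it changed the call of a member. For the other lists it is given only in part. Cell measures used cells thinned to 15000 UMIs; the within-line permutation test had 216 arrangements. No doublet caller was run; leaving out the 5% of cells with most UMIs was an alternative, as were other scalings, no filter on low counts, fewer samples, and leaving out each sample. On simulated counts for SCC6 (17897 genes) the fit recovered 88% of changes of fold 2 and 100% of fold 4, with 8 false calls. Those counts had a preset spread that was not estimated from these samples, and only genes with higher counts were changed. The recovery therefore does not measure the power to find changes in the real samples. The cell-level test of the study was not used, since cells are not replicates.

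The 9 genes and the lists were chosen with earlier results of these data known. From each list up to 3 genes with the largest mean absolute log2 fold change over the lines (mean of at least 10 CPM) are named, besides PSMB5, PSMB6, PSMB7, PSMB10, NLRC5, IRF1 and TAPBP; 1 gene that the rule names is not reported here.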

Additional observations from a re-analysis of the deposited data

Results flagged for a closer look

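TAP1, TAP2, PSMB8 and PSMB9 were picked out because each was higher with cetuximab in both SCC1 pairs of equal replicate number and lower in both SCC6 pairs, as 7.39% of all genes were. Their fitted log2 fold changes in SCC6 were −0.36, −0.73, −0.86 and −1.17, against 1.39, 0.63, 0.34 and 0.45 in SCC1. The interaction of line and treatment did not pass for any of them in edgeR (adjusted p = 0.501, 0.731, 0.467 and 0.380; with the replicate block 0.138, 0.0817, 0.0955 and 0.0719). By DESeq2 the adjusted p was 0.0917, 0.528, 0.0533 and 0.0162, so that PSMB9 passed there, as 1.78% of all genes did.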

How the results depend on the processing

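With DESeq2 size factors, only the samples of the contrast, without the 5% of cells with most UMIs and without cells over 20% mitochondrial UMIs, the counts of members that passed did not move by over 1.5 times. DESeq2 called 2 members in SCC1, 2 in SCC6, 2 over the 3 lines and 1 in the interaction, where it called 1.71%, 9.65%, 10.1% and 1.78% of all genes; no filter on low counts called 3, 2, 2 and 1, where 0.938%, 4.76%, 4.03% and 0.958% of all genes were called; the replicate block called 2, 3 and 2 and changed no other call than those named above. Without TMM factors 2 members passed over the 3 lines and 2 between SCC25 and SCC1 (3.79% and 43.0% of all genes). Leaving out 1 sample gave 0 to 1 over the 3 lines, 0 to 4 between SCC25 and SCC1 and 0 to 4 for the shares of cells, of which 1 passed without thinning. The mean ratio in SCC6 interferon-high cells, 1.46, moved to 1.61 on CPM and 1.36 with the top 20% of cells. Log2 signs turned without TMM factors for HLA-E and B2M in SCC6 (0.0842 and 0.0816), PSMB9 over the lines (0.0815), HLA-C and HLA-E between SCC25 and SCC1 (−0.21 and −0.10) and TAP2 between SCC25 and SCC6 (0.0582), and with the block for HLA-C between SCC25 and SCC1 (−0.0461). They turned on leaving out 1 sample for HLA-C in SCC6 (−0.28 to 0.55), PSMB8 in SCC25 (−0.16 to 0.58), TAP2, PSMB8 and PSMB9 over the lines (−0.0399 to 0.29, −0.24 to 0.0067 and −0.19 to 0.20), HLA-B, HLA-C, HLA-E and HLA-F between SCC25 and SCC1 (−0.88 to 0.28, −0.63 to 0.45, −0.28 to 0.41 and −0.83 to 0.0383) and TAP2 between SCC25 and SCC6 (−0.41 to 0.40). Shares in points turned without thinning for HLA-C (−0.509) and PSMB9 (−2.82), and for B2M at 10000 UMIs (−0.0804) and as the expected share over all draws, chosen after seeing the data (−0.0168); leaving out 1 sample gave −1.45 to 3.95 for HLA-C, −0.0250 to 0.0265 for B2M, −4.38 to 0.823 for PSMB8 and −1.05 to 2.39 for PSMB9. None of these turned values was called in the main analysis. The causes were not tested. Without TMM factors the median of all genes in SCC6 moved to 0.23. HLA-B shares in SCC6 rest on few UMIs per cell, and their exact p depended on the random draw.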
